A study of Arabidopsis thaliana with 30 samples.

Results

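The 10 type-A response regulators of Arabidopsis thaliana, ARR3 to ARR9 and ARR15 to ARR17, were followed through seedlings exposed to the DNA-breaking drug Zeocin or to UV-C light. They were chosen by gene identifier, as the 10 loci that make up this family, from a table of 68575 identifiers. Of the 10, 9 had enough reads to be tested among 21040 genes, and ARR17 did not. Whole seedlings of Δlinda, mutant for the lncRNA (long noncoding RNA) gene LINDA, and of its wild type Col-0 had been grown for 14 days with 10 h of light per day. How much of the locus Δlinda lacks is not stated in the labels. The treated groups were Zeocin at 80 µg/ml for 3 h in Δlinda (n = 4) and in Col-0 (n = 3), and 2 kJ UV-C with harvest after 3 h in Δlinda (n = 4) and in Col-0 (n = 4). Their controls were 3 h of mock treatment in liquid medium in Δlinda (n = 3) and in Col-0 (n = 4), and normal light in Δlinda (n = 4) and in Col-0 (n = 4), for which no time is given.

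Cytokinin is perceived by membrane histidine kinases, passed on as phosphate by histidine phosphotransfer proteins, and read out by response regulators. Type-B regulators bind DNA and activate genes, and the type-A genes are among their direct targets. Type-A proteins consist of little more than the phosphate-receiving domain, bind no DNA, and as a class dampen the pathway that induces them. Levels of ARR5, ARR6, ARR7 and ARR15 are therefore widely read as gauges of cytokinin signalling. The family falls into pairs of close relatives, ARR3 with ARR4, ARR5 with ARR6, ARR7 with ARR15, ARR8 with ARR9 and ARR16 with ARR17.

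Levels are given as CPM, the read count scaled to library size with TMM factors, and are compared within a gene only, since no gene lengths were used. Estimated counts summed to between 12471466 and 14698474 in 29 libraries and to 7738288 in normal light Δlinda replicate 1. The label of whole seedlings was checked against 7 root markers. In the 16 UV-C and normal light libraries PLT1 and PLT2 had 0 to 1 counts, CASP1 had 0 to 4, MYB36 0 to 10 and WER 0 to 13, and the summed level of the 7 markers was 20.5 to 50.6 CPM. In the 14 Zeocin and mock libraries none of the 7 markers was at 0, and the sum was 78.1 to 108.6 CPM. SCR and SHR, which are also expressed outside the root, kept 137 to 451 and 82 to 164 counts in the UV-C and normal light libraries. The defining root genes were thus at or near 0 in all UV-C and normal light libraries, treated and control alike, and the 2 experiments differ in this as well as in treatment. All 5 leaf markers were present in all 30 libraries, with sums of 17529 to 46473 CPM in UV-C and normal light libraries and 12685 to 19613 CPM in Zeocin and mock libraries.

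**Figure D1:**
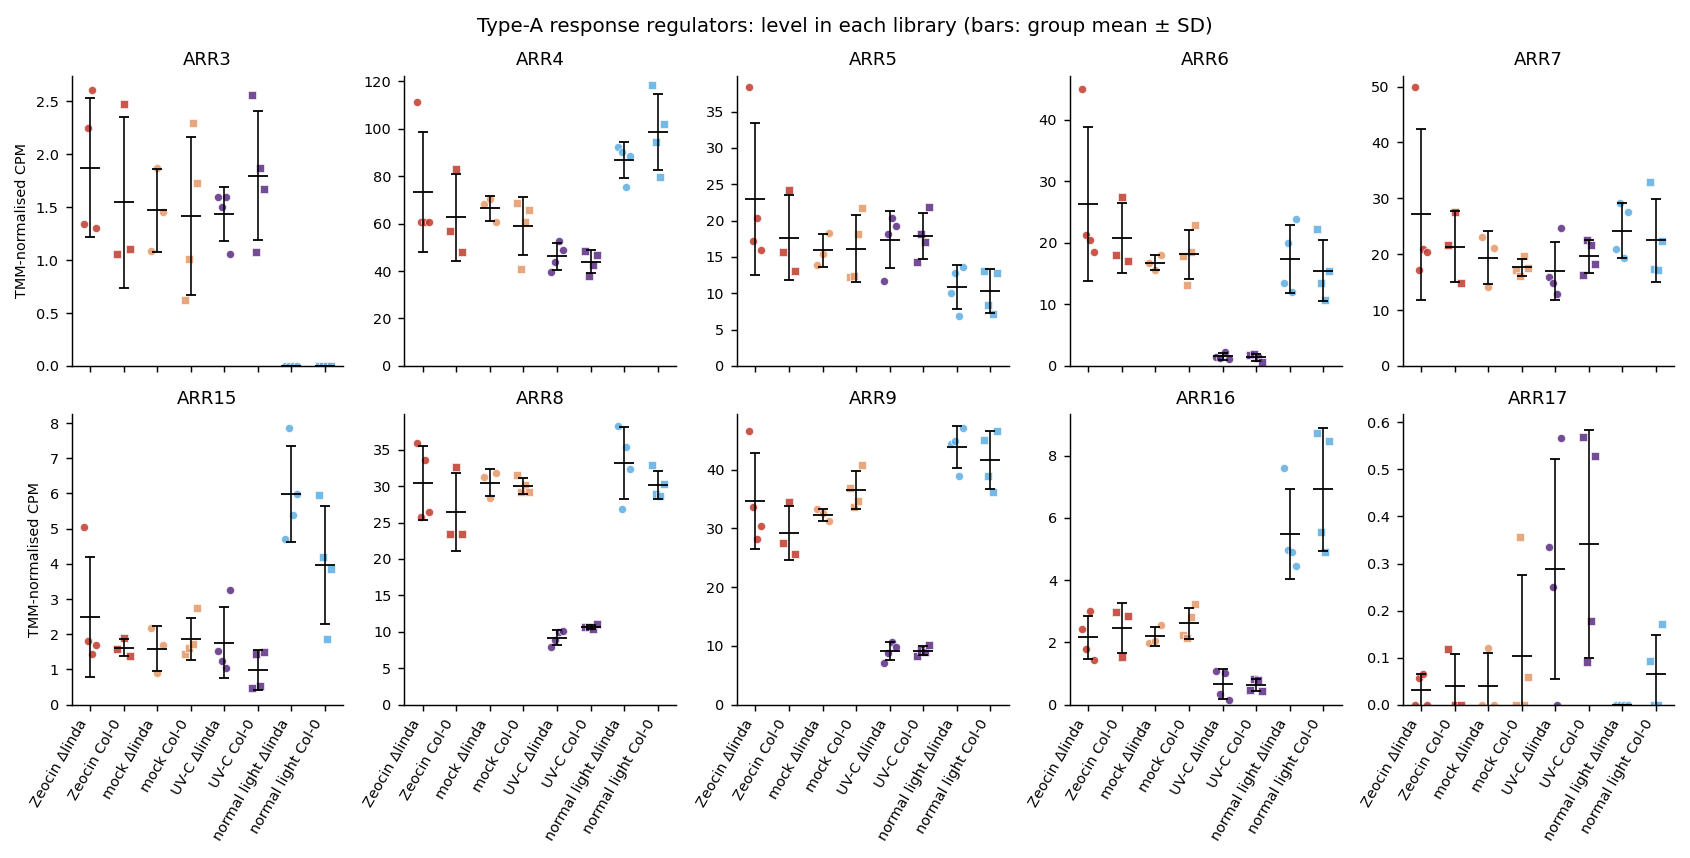
TMM-normalised CPM of each type-A member in each of the 30 libraries, by group, with the group mean and SD as bars, each panel with its own linear axis from 0. ARR6, ARR8, ARR9 and ARR16 are low in the 8 UV-C libraries, ARR3 is at 0 in the 8 normal light libraries, and Zeocin Δlinda replicate 1 lies above its group in 7 of the 9 tested members.

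UV-C changed most of the family. In Δlinda 2 of the 9 tested members rose and 6 fell, and in Col-0 the same 2 rose and the same 6 fell. ARR3 and ARR5 were the 2 that rose, and ARR4, ARR6, ARR8, ARR9, ARR15 and ARR16 the 6 that fell, while ARR7 did not pass the test in either genotype. The fall of ARR6 rests on the placing of its decimal marks and on the division of reads with the locus AT5G62910, both given with its values. The rise of ARR5 lost its call in 5 of 8 fits without 1 library in Δlinda, and in 2 of 8 in Col-0. UV-C changed 68.4% of all tested genes in Δlinda and 68.8% in Col-0, so a high count of calls is not by itself a result about the family. Lower calls made up 33.7% of tested genes in Δlinda and 34.2% in Col-0, and higher calls 34.8% and 34.6%. In Δlinda 6 members were lower and 1 was higher in every UV-C library than in every normal light library, where 28.6% and 29.9% of tested genes did so, and in Col-0 6 were lower and 2 higher, where 32.5% did so in each direction. The median log2 fold of the 9 members was -1.76 in Δlinda and -1.496 in Col-0, against 0.01 and 0 over all tested genes. TMM scaling itself holds the value over all genes near 0. Placing ARR3 at its lower bound cannot move the median, since ARR3 is the highest member either way. The median does depend on ARR6 and ARR8, which share reads with other loci. With their folds summed with those loci, the middle member is ARR4 in Δlinda, at -0.91, and ARR8 in Col-0, at -0.77. In RNA of samples labelled as whole seedlings, fewer cells of a type and less RNA per cell cannot be told apart. Several genes of the marker lists were also lower after UV-C. All 5 leaf markers fell in both genotypes. Of the 7 root markers 3 fell in each genotype. The sum of the 7 was 20.5 to 29.0 CPM in UV-C Δlinda, against 42.1 to 50.6 CPM in normal light Δlinda. In Col-0 it was 26.3 to 29.97 CPM after UV-C, against 40.8 to 49.9 CPM in normal light. Nearly all of this sum was SCR (11.4 to 37.6 CPM) and SHR (7.85 to 13.3 CPM), which are also expressed outside the root. The defining root genes were at or near 0 in treated and control libraries alike. Of the 2 tested meristem markers (of 5) 1 fell in each genotype, and the sum was 20.8 to 26.7 CPM in UV-C Δlinda, against 47.1 to 66.3 CPM in normal light Δlinda, and 23.3 to 27.9 CPM in UV-C Col-0, against 47.8 to 55.99 CPM in normal light Col-0. Of the 5 vascular markers 1 rose and 1 fell in Δlinda, and 1 rose and 2 fell in Col-0, with sums of 76.5 to 105 CPM in UV-C Δlinda, against 89.5 to 104 CPM in normal light Δlinda, and 73.4 to 87.1 CPM in UV-C Col-0, against 90.4 to 111 CPM in normal light Col-0. The part of these shifts in the members' values was not tested.

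**Figure D2:**
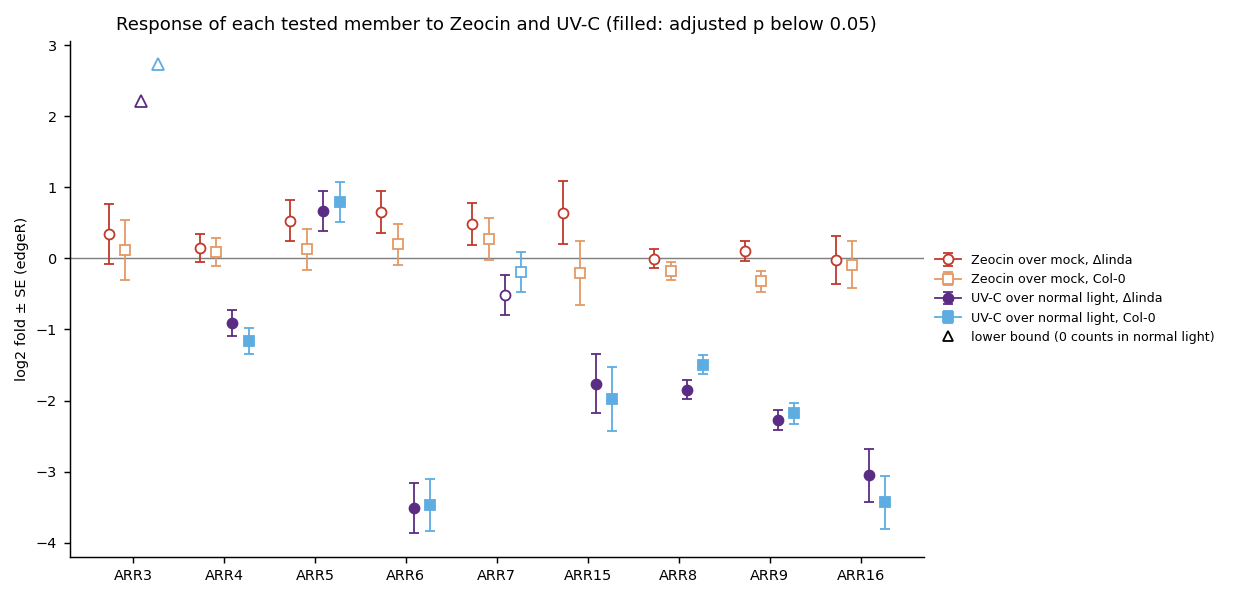
Log2 fold of each tested member with its standard error for Zeocin over mock and UV-C over normal light in each genotype; filled symbols passed an adjusted p of 0.05 and triangles are lower bounds against 0 counts. The Zeocin values lie between -0.32 and 0.65, and the UV-C values reach -3.51 in Δlinda and -3.48 in Col-0, both for ARR6. These ARR6 values depend on the placing of its decimal marks and on the division of reads with AT5G62910. ARR16 follows at -3.05 in Δlinda and -3.43 in Col-0.

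In the pair ARR5 and ARR6, both rapidly induced by cytokinin, ARR5 rose and ARR6 fell after UV-C. ARR6 (AT5G62920) had 1.51, 1.25, 2.34 and 1.05 CPM in UV-C Δlinda, against 13.5, 19.9, 11.97 and 23.8 CPM in normal light Δlinda. In Col-0 it had 1.71, 1.98, 1.25 and 0.617 CPM after UV-C, against 22.3, 13.4, 10.8 and 15.4 CPM in normal light. No UV-C library reached the lowest normal light library in either genotype. These values depend on the decimal marks lost from the deposited table, which were put back with use of the groups. They give ARR6 7.21 to 24.7 counts in the 8 UV-C libraries, against 88.9 to 295 in the 8 normal light libraries. Without the groups its marks stayed unclear, and the likeliest reading was 10 times higher in every UV-C library, at 72.1 to 247 counts. The deposited digits of ARR6 and of AT5G62910, a locus that shares its reads, do not use the groups. They added up to a multiple of 1000 in 8 of 8 UV-C libraries, as a whole sum requires with 3 decimals in both, whereas with 2 decimals a multiple of 100 would do. The log2 fold was -3.51 ± 0.36 in Δlinda (SE, edgeR adjusted p = 1.1e-09) and -3.48 ± 0.36 in Col-0 (edgeR adjusted p = 2.2e-09). ARR5 (AT3G48100) had 11.7, 18.2, 20.3 and 19.3 CPM in UV-C Δlinda, against 10.0, 12.8, 6.88 and 13.7 CPM in normal light Δlinda. Its Col-0 values were 14.3, 18.2, 17.1 and 21.9 CPM after UV-C, against 13, 8.36, 7.11 and 12.8 CPM in normal light. The groups did not overlap in Col-0, whereas in Δlinda 1 UV-C library lay within the range of normal light. The log2 fold of ARR5 was 0.67 ± 0.28 in Δlinda (edgeR adjusted p = 0.039) and 0.79 ± 0.28 in Col-0 (edgeR adjusted p = 0.015). The ARR5 call was lost in Δlinda without normal light replicate 1 or 3 or without UV-C replicate 2, 3 or 4 (edgeR adjusted p between 0.07 and 0.14), and in Col-0 without normal light replicate 3 (edgeR adjusted p = 0.06) or UV-C replicate 4 (edgeR adjusted p = 0.05).

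The sharing of reads between ARR6 and its neighbour AT5G62910 bears on the fall of ARR6. In the TAIR10.1 gene table the 2 loci lie on opposite strands with overlapping ends, and the sources used here give no strand setting. All 27 ARR6 estimates that were not whole added to a whole number with those of AT5G62910. AT5G62910 averaged 37.6 ± 5.54 CPM in UV-C Δlinda and 15.2 ± 1.60 CPM in normal light Δlinda, and 34.9 ± 4.91 CPM in UV-C Col-0 and 17.8 ± 1.52 CPM in normal light Col-0 (SD, n = 4 each). The sum of both loci was 34.1 to 46.3 CPM in UV-C Δlinda and 27.1 to 36.8 CPM in normal light Δlinda. In Col-0 the sum was 33.1 to 42.7 CPM after UV-C and 27.8 to 38.8 CPM in normal light. Summed, the log2 fold was 0.26 in Δlinda (edgeR adjusted p = 0.16) and 0.13 in Col-0 (edgeR adjusted p = 0.5). ARR6 took 2.7% to 6.9% of the sum in UV-C Δlinda and 44.2% to 64.7% in normal light Δlinda, and 1.4% to 5.5% in UV-C Col-0 and 38.7% to 57.5% in normal light Col-0. Whether reads were divided differently between the 2 loci after UV-C was not tested.

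**Figure D3:**
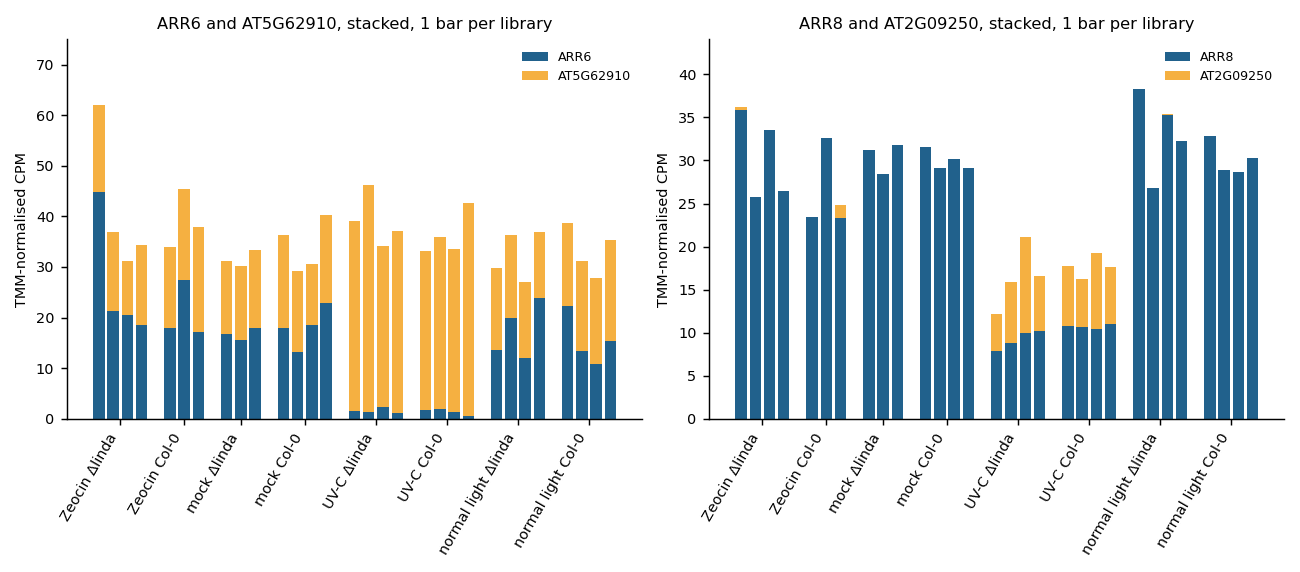
TMM-normalised CPM of ARR6 stacked with AT5G62910 (left) and of ARR8 stacked with AT2G09250 (right), 1 bar per library, on axes from 0. The ARR6 part nearly vanishes in the 8 UV-C libraries while the stacked height stays within 33.1 to 46.3 CPM, and the ARR8 stack is lower in all 8 UV-C libraries, at 12.1 to 21.1 CPM.

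ARR8 and ARR9, a pair with weaker cytokinin induction than ARR5 or ARR6, both fell after UV-C, with the smallest standard errors of the family. ARR9 (AT3G57040) had 7.05, 8.84, 10.6 and 9.81 CPM in UV-C Δlinda, against 44.4, 45.0, 38.9 and 47.2 CPM in normal light Δlinda. In Col-0 it had 8.25, 9.28, 8.99 and 10.2 CPM after UV-C, against 45.1, 39.0, 36.1 and 46.6 CPM in normal light. The log2 fold of ARR9 was -2.27 ± 0.15 in Δlinda (edgeR adjusted p = 2e-14) and -2.18 ± 0.15 in Col-0 (edgeR adjusted p = 4.6e-14). ARR9 had no read-sharing partner by whole sums, since all its estimates were whole. ARR8 (AT2G41310) averaged 9.20 ± 1.05 CPM in UV-C Δlinda and 33.2 ± 4.91 CPM in normal light Δlinda, and 10.7 ± 0.253 CPM in UV-C Col-0 and 30.2 ± 1.93 CPM in normal light Col-0 (SD, n = 4 each). Every UV-C library lay below every normal light library for both genes. The log2 fold of ARR8 was -1.85 ± 0.13 in Δlinda (edgeR adjusted p = 2e-13) and -1.496 ± 0.13 in Col-0 (edgeR adjusted p = 1.5e-11).

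A noncoding RNA gene that the TAIR10.1 table places within the ARR8 locus on the other strand, AT2G09250, shared reads with ARR8 in 10 of its 11 estimates that were not whole. AT2G09250 had 50.5 to 118.9 estimated counts in UV-C Δlinda, against 0 to 1.4 in normal light Δlinda. It had 62.3 to 99.5 in UV-C Col-0, against 0 in normal light Col-0. In the Zeocin libraries it had 0 to 5.6 in Δlinda and 0 to 25 in Col-0, and 0 in all mock libraries of both genotypes. Reads of a gene and its antisense partner cannot be told apart where strand is not stated. The sum of both loci was still lower after UV-C, at 12.1 to 21.1 CPM against 26.8 to 38.3 CPM in normal light in Δlinda, and 16.2 to 19.3 CPM against 28.7 to 32.9 CPM in Col-0. The summed log2 fold was -1.01 in Δlinda (edgeR adjusted p = 2.2e-07) and -0.77 in Col-0 (edgeR adjusted p = 1.6e-05).

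ARR4 and ARR3 form a pair whose members are tied to light signalling and the clock, ARR4 as a partner of phytochrome B. ARR4 (AT1G10470) had 39.5, 43.9, 52.5 and 48.9 CPM in UV-C Δlinda, against 92.5, 90.3, 75.5 and 88.5 CPM in normal light Δlinda. In Col-0 it had 48.6, 37.8, 42.5 and 46.8 CPM after UV-C, against 118, 94.3, 79.7 and 102 CPM in normal light. The groups did not overlap in either genotype. The log2 fold was -0.91 ± 0.19 in Δlinda (edgeR adjusted p = 8.1e-05) and -1.17 ± 0.19 in Col-0 (edgeR adjusted p = 2.3e-06). ARR3 (AT1G59940) went the other way, with 1.59, 1.501, 1.59 and 1.05 CPM in UV-C Δlinda, against 0 counts in each of the 4 normal light Δlinda libraries. It had 2.56, 1.08, 1.87 and 1.68 CPM in UV-C Col-0, against 0 counts in each of the 4 normal light Col-0 libraries. Over a floor of 3 counts per library, ARR3 was at least 4.64-fold higher after UV-C in Δlinda and at least 6.65-fold higher in Col-0. These levels rest on 13 to 19 counts per library in UV-C Δlinda and 12 to 27 in UV-C Col-0. Of the 2 ARR3 estimates that were not whole, that of mock Col-0 replicate 1 was itself placed by its sum with ARR4, and the other, 18.02 in Zeocin Col-0 replicate 1, added up to 985 with ARR4. A single sum does not show that the pair shares reads. The sum of both genes was lower after UV-C by a log2 fold of -0.86 in Δlinda and -1.11 in Col-0. ARR4 makes up nearly all of this sum, so the sum cannot show whether ARR3 rose.

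Of ARR7 and ARR15, which act in the shoot meristem and the embryonic root, ARR15 fell after UV-C and ARR7 did not pass the test. The difference between the 2 genes was not tested. ARR15 (AT1G74890) had 1.51, 1.25, 1.03 and 3.24 CPM in UV-C Δlinda, against 4.71, 7.87, 5.39 and 5.98 CPM in normal light Δlinda. It had 0.474, 1.44, 0.534 and 1.499 CPM in UV-C Col-0, against 5.94, 4.18, 1.86 and 3.85 CPM in normal light Col-0. The groups did not overlap, and the log2 fold was -1.76 ± 0.41 in Δlinda (edgeR adjusted p = 0.00037) and -1.98 ± 0.45 in Col-0 (edgeR adjusted p = 0.00027). ARR7 (AT1G19050) had 15.9, 14.8, 12.8 and 24.7 CPM in UV-C Δlinda, against 21.0, 29.1, 19.3 and 27.6 CPM in normal light Δlinda. It had 16.2, 22.5, 21.7 and 18.3 CPM in UV-C Col-0, against 33.0, 17.4, 17.2 and 22.3 CPM in normal light Col-0. The groups overlapped, and the log2 fold was -0.51 (95% interval -1.07 to 0.046) in Δlinda and -0.19 (-0.75 to 0.37) in Col-0. Without UV-C Δlinda replicate 4, the highest of its group, ARR7 passed in Δlinda at -0.75 (edgeR adjusted p = 0.032).

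ARR16 and ARR17, a pair known from the stomatal lineage, had few counts per library. ARR16 (AT2G40670) had 1.09, 0.334, 1.03 and 0.162 CPM in UV-C Δlinda, against 7.60, 4.98, 4.89 and 4.44 CPM in normal light Δlinda. It had 0.474, 0.811, 0.801 and 0.441 CPM in UV-C Col-0, against 8.73, 5.54, 4.91 and 8.48 CPM in normal light Col-0. The log2 fold was -3.05 ± 0.37 in Δlinda (edgeR adjusted p = 2.1e-08) and -3.43 ± 0.37 in Col-0 (edgeR adjusted p = 1.8e-09). Its UV-C libraries held 2 to 13 counts in Δlinda and 5 to 9 in Col-0. ARR17 (AT3G56380) had 0 to 7 counts in UV-C Δlinda, against 0 in normal light Δlinda, and 1 to 6 in UV-C Col-0, against 0 to 2 in normal light Col-0. It had 0 to 2 counts per library in the Zeocin groups and 0 to 6 in the mock groups, and these counts are too few for a comparison.

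Zeocin changed no member past the test. The count was 0 of 9 in Δlinda and 0 of 9 in Col-0 by edgeR, with 1 member in each genotype at an unadjusted p under 0.05, and 0 by DESeq2 in both. Zeocin changed 2.81% of all tested genes in Δlinda and 5.21% in Col-0, and 0 of 9 is close to that background. The smallest unadjusted p in Δlinda belonged to ARR6. It had 44.9, 21.3, 20.5 and 18.6 CPM in Zeocin Δlinda, against 16.7, 15.6 and 17.99 CPM in mock Δlinda. Every Zeocin library lay above every mock library, which held for 7.24% of tested genes in that direction, and the log2 fold was 0.65 ± 0.29 (edgeR adjusted p = 0.36). In Col-0 ARR6 had 18.01, 27.4 and 17.1 CPM after Zeocin, against 17.9, 13.2, 18.6 and 22.9 CPM in mock. The groups overlapped there, at a log2 fold of 0.20 ± 0.29. In Col-0 the smallest unadjusted p belonged to ARR9, with 27.6, 34.4 and 25.6 CPM after Zeocin, against 36.9, 33.6, 34.7 and 40.9 CPM in mock. The ranges overlapped by 1 library, and the log2 fold was -0.32 ± 0.14 (edgeR adjusted p = 0.25). In Δlinda ARR9 had 46.5, 33.7, 28.1 and 30.4 CPM after Zeocin, against 33.3, 32.6 and 31.2 CPM in mock.

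For the other members, Zeocin and mock libraries overlapped in both genotypes. ARR4 averaged 73.2 ± 25.2 CPM in Zeocin Δlinda (n = 4) and 66.3 ± 5.10 CPM in mock Δlinda (n = 3), and 62.5 ± 18.2 CPM in Zeocin Col-0 (n = 3) and 59.0 ± 12.4 CPM in mock Col-0 (n = 4). ARR5 averaged 23.0 ± 10.4 CPM in Zeocin Δlinda and 15.9 ± 2.25 CPM in mock Δlinda, and 17.6 ± 5.85 CPM in Zeocin Col-0 and 16.1 ± 4.66 CPM in mock Col-0 (SD, with the same n). The 95% interval of the ARR5 log2 fold was -0.038 to 1.10 in Δlinda and -0.44 to 0.69 in Col-0. That of ARR7, also induced by cytokinin, was -0.10 to 1.07 in Δlinda and -0.31 to 0.86 in Col-0. ARR7 averaged 27.1 ± 15.3 CPM in Zeocin Δlinda and 19.4 ± 4.72 CPM in mock Δlinda, and 21.4 ± 6.35 CPM in Zeocin Col-0 and 17.6 ± 1.48 CPM in mock Col-0. ARR8 averaged 30.4 ± 5.08 CPM in Zeocin Δlinda and 30.5 ± 1.82 CPM in mock Δlinda, and 26.5 ± 5.34 CPM in Zeocin Col-0 and 30.01 ± 1.14 CPM in mock Col-0. Among the members with few counts, ARR3, ARR15 and ARR16 had log2 folds of 0.35, 0.65 and -0.023 in Δlinda and 0.12, -0.21 and -0.087 in Col-0, with standard errors of 0.33 to 0.45.

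A single library carried much of the Zeocin values in Δlinda. Zeocin Δlinda replicate 1 was the highest of its group in 7 of the 9 tested members, ARR4 to ARR9 and ARR15. It had 111 CPM of ARR4 against 60.5 to 60.8 CPM in the other 3 libraries, 50 CPM of ARR7 against 17.2 to 21.0 CPM, and 5.04 CPM of ARR15 against 1.44 to 1.80 CPM. Without it the log2 folds in Δlinda became 0.27 for ARR6, 0.17 for ARR5, 0.0090 for ARR7, 0.048 for ARR15 and -0.13 for ARR4, against 0.65, 0.53, 0.48, 0.65 and 0.14 with it. Without it the count of calls stayed at 0. In Col-0, Zeocin replicate 2 was the highest of its group in 8 of the 9 tested members and the lowest in 1. Leaving that library out changed the sign of some Zeocin folds in Col-0. They became -0.39 for ARR3, -0.17 for ARR4, -0.17 for ARR5, -0.047 for ARR6 and 0.16 for ARR16. With the library they were 0.12, 0.085, 0.13, 0.20 and -0.087. No member was called in Col-0 either way.

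The genotype made no difference that passed the test in any condition. Δlinda against Col-0 gave 0 of 9 members after Zeocin (0.143% of all tested genes), 0 of 9 in mock (0.0143%) and 0 of 9 after UV-C (0.0285%). In normal light it gave 0 of the 8 members with counts (0.171%). At an unadjusted p under 0.05 the count was also 0 in all 4 conditions, and DESeq2 called 0. The log2 folds ranged from -0.18 (ARR16) to 0.62 (ARR15) after Zeocin, from -0.25 (ARR16) to 0.17 (ARR4) in mock, and from -0.32 (ARR3) to 0.83 (ARR15) after UV-C. In normal light, leaving out ARR3 with its 0 counts, they ranged from -0.36 (ARR16) to 0.61 (ARR15). ARR9 in mock and ARR8 after UV-C were lower in every Δlinda library than in every Col-0 library, which held for 2.62% and 2.02% of tested genes in that direction. The widest 95% interval bounds over these 4 comparisons reached -1.13 and 1.76, so differences within these bounds could not be seen for every member.

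The response to either treatment was not shown to differ between genotypes. The interaction of Zeocin with genotype passed for 0 of 9 members, and that of UV-C with genotype for 0 of the 8 without ARR3, against 0.0285% of all tested genes in each. ARR9 alone had an unadjusted p under 0.05 in the Zeocin interaction, at 0.43 ± 0.20 (edgeR adjusted p = 1). DESeq2 called 0 in both interactions. For UV-C the interaction folds ran from -0.35 for ARR8 to 0.38 for ARR16, leaving out ARR3, and none had an unadjusted p under 0.05.

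The Zeocin response and the UV-C response differed in most members. Treatment and experiment cannot be told apart in this comparison, since the 2 experiments also differ in their controls and root markers. The Zeocin response minus the UV-C response was higher for 7 of 9 members and lower for 1 in Δlinda, and higher for 6 and lower for 1 in Col-0. Of all tested genes 54.4% passed in Δlinda (27.3% higher, 27.1% lower) and 55.8% in Col-0 (28.5% higher, 27.2% lower). This comparison contains the UV-C comparison and is not independent of it. Among the members called higher, ARR6 had the largest difference, 4.17 ± 0.47 in Δlinda (edgeR adjusted p = 2e-08) and 3.67 ± 0.47 in Col-0 (edgeR adjusted p = 1.8e-07), and with AT5G62910 added to it the difference was 0.12 (edgeR adjusted p = 0.72) and 0.068 (edgeR adjusted p = 0.85). ARR16 followed with 3.03 ± 0.51 in Δlinda and 3.35 ± 0.50 in Col-0, and ARR9 with 2.38 ± 0.21 and 1.86 ± 0.20. ARR4, ARR8 and ARR15 were also higher in both genotypes, between 1.05 and 2.41 in Δlinda and between 1.25 and 1.77 in Col-0. With AT2G09250 added to it, ARR8 had 1.015 in Δlinda (edgeR adjusted p = 9.6e-05) and 0.616 in Col-0 (edgeR adjusted p = 0.01). ARR3 was the member called lower in both, through its 0 counts in normal light, and ARR5 did not pass in either, at -0.14 ± 0.40 in Δlinda and -0.67 ± 0.40 in Col-0. ARR7 passed in Δlinda, at 1.00 ± 0.42 (edgeR adjusted p = 0.044), and had 0.47 ± 0.41 in Col-0 (edgeR adjusted p = 0.35). Without Zeocin Δlinda replicate 1 it had 0.52 in Δlinda (edgeR adjusted p = 0.19). Its call was also lost without mock Δlinda replicate 2 or 3, normal light Δlinda replicate 2 or 4, or UV-C Δlinda replicate 1, 2 or 3 (edgeR adjusted p between 0.055 and 0.13). Without normal light Col-0 replicate 1 ARR15 lost its call in Col-0 (edgeR adjusted p = 0.05).

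The 2 controls, mock and normal light, already differed in part of the family, beside their difference in root markers. These groups also serve as the controls of the treatment comparisons. ARR3 rose and 3 members fell in mock against normal light in each genotype, where 46.7% of all tested genes were called in Δlinda (24.5% higher, 22.3% lower) and 55.1% in Col-0 (28.3% higher, 26.8% lower). ARR3 had 18 to 31 counts per library in mock Δlinda, against 0 in normal light Δlinda. It had 10 to 39 in mock Col-0, against 0 in normal light Col-0. Over the floor this is at least 4.75-fold higher in Δlinda and at least 5.24-fold higher in Col-0. The count of 10, in mock Col-0 replicate 1, was placed by its sum with ARR4. Its likeliest reading alone was 1.001, so the Col-0 bound rests in part on this placing. ARR16 averaged 2.20 ± 0.309 CPM in mock Δlinda (n = 3) and 5.48 ± 1.44 CPM in normal light Δlinda (n = 4), with a log2 fold of -1.29 ± 0.34 (edgeR adjusted p = 0.0022). In Col-0 it averaged 2.61 ± 0.509 CPM in mock and 6.91 ± 1.97 CPM in normal light (n = 4 each), with -1.40 ± 0.30 (edgeR adjusted p = 0.00023). ARR15 was lower in mock in both genotypes, at -1.92 ± 0.45 in Δlinda (edgeR adjusted p = 0.00065) and -1.07 ± 0.40 in Col-0 (edgeR adjusted p = 0.025), and in Col-0 it lost its call without mock replicate 1, 2 or 3 or normal light replicate 1 (edgeR adjusted p up to 0.12). The remaining fall was ARR9 in Δlinda, at -0.44 ± 0.15 (edgeR adjusted p = 0.013), and ARR4 in Col-0, at -0.74 ± 0.18 (edgeR adjusted p = 0.001). ARR5 had 0.54 ± 0.30 in Δlinda and 0.65 ± 0.28 in Col-0 (edgeR adjusted p = 0.052), and in Col-0 it passed with DESeq2 size factors, in DESeq2, without the abundant noncoding RNA gene AT3G06365, with decimal marks placed without the groups, and without mock replicate 1 or 2 or normal light replicate 1 or 4 (adjusted p between 0.02 and 0.048 in edgeR or DESeq2). ARR6, ARR7 and ARR8 had folds between -0.35 and 0.23. The experiment, the medium and the root content of the sample cannot be told apart in these values.

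By group mean, the members took different orders over the 8 groups. ARR4 was highest in normal light, at 86.7 ± 7.64 CPM in Δlinda and 98.6 ± 16.02 CPM in Col-0, lowest after UV-C, at 46.2 ± 5.68 CPM and 43.9 ± 4.81 CPM, and between these in the Zeocin and mock groups, which overlapped each other. ARR8, ARR9 and ARR6 stood at similar means in the Zeocin, mock and normal light groups, and their UV-C groups lay apart from all others. The ARR9 means ran from 29.2 ± 4.65 CPM in Zeocin Col-0 to 43.9 ± 3.52 CPM in normal light Δlinda outside UV-C, with neighbouring groups overlapping, and were 9.07 ± 1.53 and 9.19 ± 0.818 CPM in UV-C Δlinda and UV-C Col-0. ARR5 had its lowest means in normal light, at 10.8 ± 3.05 CPM in Δlinda and 10.3 ± 3.01 CPM in Col-0, and its UV-C means of 17.4 ± 3.91 and 17.9 ± 3.12 CPM lay beside those of the Zeocin and mock groups. ARR16 was highest in normal light and lowest after UV-C, with all Zeocin and mock libraries between. ARR15 was highest in normal light, and its neighbouring Zeocin, mock and UV-C groups overlapped. ARR7 had the narrowest range of group means for its level, from 17.0 ± 5.24 CPM in UV-C Δlinda to 27.1 ± 15.3 CPM in Zeocin Δlinda, and neighbouring groups in that order overlapped.

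Within groups, several members varied together from library to library. Over the deviations of 30 libraries from their group means, Pearson's r was 0.85 between ARR5 and ARR9, 0.80 between ARR4 and ARR9, 0.76 between ARR7 and ARR15 and 0.73 between ARR4 and ARR5. The 21 pairs among ARR4 to ARR9 and ARR15 had r from 0.24 to 0.85 with a median of 0.58, whereas the 15 pairs that include ARR3 or ARR16 had r from -0.30 to 0.38 with a median of -0.012. ARR3 was at 0 in all 8 normal light libraries, so its deviations there are fixed at 0. ARR16 had 2 to 13 counts per UV-C library. Of the members in the 21 pairs, ARR6 had 7 to 25 counts per UV-C library and ARR15 had 5 to 40. Such low counts carry counting error, and its part in these r values was not tested. The division into 21 and 15 pairs was made after the values were seen. The points of each correlation share library, depth and scaling. Zeocin Δlinda replicate 1, Zeocin Col-0 replicate 2 and normal light Col-0 replicates 1 and 4 were above their group mean in all 7 of ARR4 to ARR9 and ARR15. Zeocin Δlinda replicates 2 and 4, Zeocin Col-0 replicate 3, mock Col-0 replicate 2 and normal light Col-0 replicate 3 were above it in 0 of 7. Across all 30 libraries, group differences included, ARR8 and ARR9 had r = 0.97, ARR6 and ARR8 0.94, and ARR6 and ARR9 0.94, while the pair ARR5 and ARR6 had -0.053. The r values with ARR6 depend on how its UV-C estimates were read and divided from AT5G62910.

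**Figure D4:**
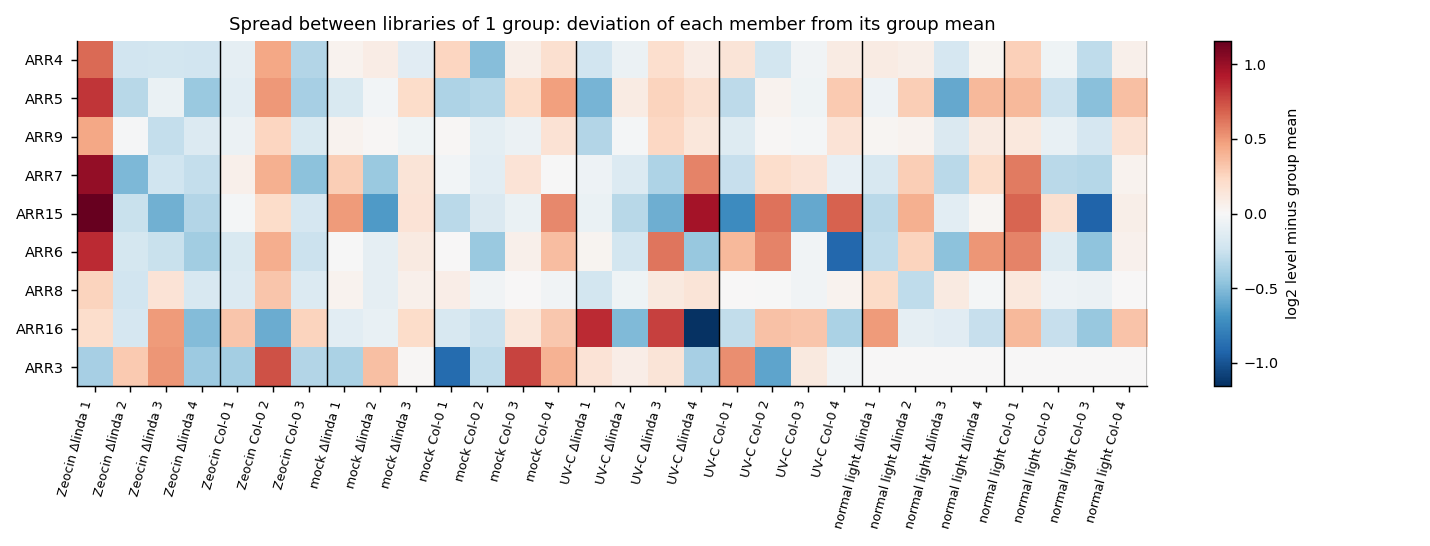
Deviation of each tested member from its group mean on the log2 scale in each library, red above and blue below, with lines between groups. Zeocin Δlinda replicate 1 is above the mean in all of the upper 7 rows by 0.25 to 1.16, while ARR16 and ARR3 in the bottom rows follow another pattern.

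Outside the family, the genes most like each member over all 30 libraries were taken by Pearson's r of log2 CPM. ARR9 was closest to the aquaporin gene TIP2 (AT3G26520, r = 0.98), which was also among the 3 closest to ARR8 (r = 0.97). ARR8 was closest to the homeobox gene HB16 (AT4G40060, r = 0.98) and then MSRB6 (AT4G04840, r = 0.97). ARR6 was closest to PCAP1 (AT4G20260, r = 0.98), GER1 (AT1G72610, r = 0.97) and AGP21 (AT1G55330, r = 0.97). Its r values depend on its UV-C values, and so on the placing of its decimal marks and the division of reads with AT5G62910. ARR16 was closest to AT2G01870 (r = 0.96), with the GRAS-family gene HAM2 (AT3G60630, r = 0.95) among its 3 closest, and ARR3 to the glutamate receptor-like gene GLR2.5 (AT5G11210, r = 0.98). ARR4 was closest to AT4G40030 (r = 0.88), ARR5 to AT5G63905 (r = 0.82), ARR15 to AT2G23755 (r = 0.81) and ARR7 to CB5LP (AT1G60660, r = 0.62). These r values include the differences between groups. Within groups TIM9 (AT3G46560), a chaperone of mitochondrial protein import, was among the 3 most alike for ARR5 (r = 0.81), ARR4 (r = 0.79) and ARR9 (r = 0.73), a measure added after the values were seen.

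The rest of the cytokinin pathway was read from lists of 58 other genes. Its counts after UV-C stand beside 33.7% of all tested genes lower and 34.8% higher in Δlinda, and 34.2% lower and 34.6% higher in Col-0. All 3 receptor genes fell after UV-C in both genotypes. AHK2 averaged 8.62 ± 1.17 CPM in UV-C Δlinda and 35.9 ± 2.77 CPM in normal light Δlinda, and 11.8 ± 1.14 CPM in UV-C Col-0 and 37.0 ± 1.34 CPM in normal light Col-0 (SD, n = 4 each), with log2 folds of -2.06 ± 0.13 and -1.66 ± 0.12. AHK3 had -0.77 ± 0.13 in Δlinda and -0.65 ± 0.12 in Col-0, and AHK4 had -1.23 ± 0.25 and -0.995 ± 0.25. Of the 6 tested phosphotransfer genes 1 rose and 0 fell in Δlinda, and 1 rose and 3 fell in Col-0. The riser was AHP5, at 1.24 ± 0.12 in Δlinda and 0.77 ± 0.12 in Col-0, and the falls in Col-0 included AHP4 at -1.19 ± 0.34 and AHP2 at -0.35 ± 0.10. Of the 6 tested type-B genes, which activate type-A genes, 2 rose and 3 fell in Δlinda, and 1 rose and 4 fell in Col-0. ARR14 had -2.46 ± 0.21 in Δlinda and -2.14 ± 0.21 in Col-0, ARR12, a main type-B regulator, -1.28 ± 0.15 and -0.98 ± 0.15, and ARR1, another main one, -0.79 ± 0.13 in Δlinda. In Col-0 ARR11 had -0.91 ± 0.37.

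The cytokinin response factors, AP2-type transcription factors, moved mostly the other way. Of the 6 tested CRF genes 4 rose and 1 fell after UV-C in both genotypes. CRF6, which is known as a stress-responsive member, averaged 82.8 ± 9.47 CPM in UV-C Δlinda and 4.63 ± 1.01 CPM in normal light Δlinda, and 83.9 ± 3.43 CPM in UV-C Col-0 and 5.19 ± 0.4998 CPM in normal light Col-0 (SD, n = 4 each), with log2 folds of 4.19 ± 0.29 and 4.01 ± 0.28. CRF5 rose by 2.99 ± 0.26 in Δlinda and 3.39 ± 0.26 in Col-0, and CRF2 fell, at -1.62 ± 0.20 and -1.52 ± 0.21. CRF6 and CRF4 were also the cytokinin genes that Zeocin changed in both genotypes. CRF6 averaged 22.9 ± 8.24 CPM in Zeocin Δlinda and 8.05 ± 1.21 CPM in mock Δlinda, with 1.51 ± 0.28 (edgeR adjusted p = 0.00097), and 27.0 ± 8.69 CPM in Zeocin Col-0 and 9.32 ± 4.91 CPM in mock Col-0, with 1.53 ± 0.27 (edgeR adjusted p = 0.00029). CRF4 had 0.71 ± 0.17 in Δlinda and 0.70 ± 0.17 in Col-0 after Zeocin. In Col-0 Zeocin also raised AHP5, by 0.54 ± 0.14 (edgeR adjusted p = 0.012), and lowered CRF2, at -0.65 ± 0.20, which passed at the edge of the threshold (edgeR adjusted p = 0.05).

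Genes of cytokinin metabolism were mixed after UV-C. Of 7 tested synthesis genes 2 rose and 2 fell in Δlinda, and 0 rose and 2 fell in Col-0. IPT3, an isopentenyltransferase that starts synthesis, had -1.90 ± 0.30 in Δlinda and -1.07 ± 0.30 in Col-0, and IPT9 had -1.17 ± 0.17 and -1.21 ± 0.17. IPT1 and IPT7, the risers in Δlinda, had 0 to 4 and 0 to 5 counts per library in UV-C Δlinda, against 0 counts in normal light Δlinda. Of 7 tested LOG genes, which release active cytokinin, 2 rose and 2 fell in Δlinda, and 4 rose and 2 fell in Col-0. LOG5 had 3.85 ± 0.56 in Δlinda and 4.03 ± 0.57 in Col-0, LOG4 2.58 ± 0.65 and LOG3 1.959 ± 0.52 in Col-0, and LOG1 fell, at -1.54 ± 0.14 in Δlinda and -1.28 ± 0.14 in Col-0. LOG6, the other riser in Δlinda, had 1.151 ± 0.45. Of 5 tested cytokinin oxidase genes, which degrade the hormone, 3 rose in Δlinda and 2 in Col-0, and none fell. CKX4 had 1.18 ± 0.21 in Δlinda and 0.88 ± 0.21 in Col-0, and CKX7 had 0.35 ± 0.14 and 0.82 ± 0.14. CKX3, the other riser in Δlinda, had 3 to 7 counts per library in UV-C Δlinda, against 0 to 2 in normal light Δlinda. Of 4 tested glucosyltransferase genes 2 rose in both genotypes, and UGT76C1, which inactivates cytokinin by glucosylation, fell in Δlinda, at -0.47 ± 0.15. UGT85A1, which glucosylates zeatin, averaged 508 ± 56.6 CPM in UV-C Δlinda and 8.67 ± 5.52 CPM in normal light Δlinda, and 465 ± 73.3 CPM in UV-C Col-0 and 3.32 ± 0.514 CPM in normal light Col-0 (SD, n = 4 each), with log2 folds of 5.82 ± 0.52 and 7.12 ± 0.56. UGT73C5, best known for glucosylating brassinosteroids, rose by 3.78 ± 0.44 in Δlinda and 4.09 ± 0.45 in Col-0. After Zeocin 0 genes of synthesis, activation, degradation, glucosylation, receptors and type-B regulators passed the edgeR test in either genotype. At an unadjusted p under 0.05 there were 2 of them in Δlinda and 5 in Col-0. Zeocin changed 2.81% of all tested genes in Δlinda and 5.21% in Col-0, so a count of 0 is not by itself a result about these lists.

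**Figure D5:**
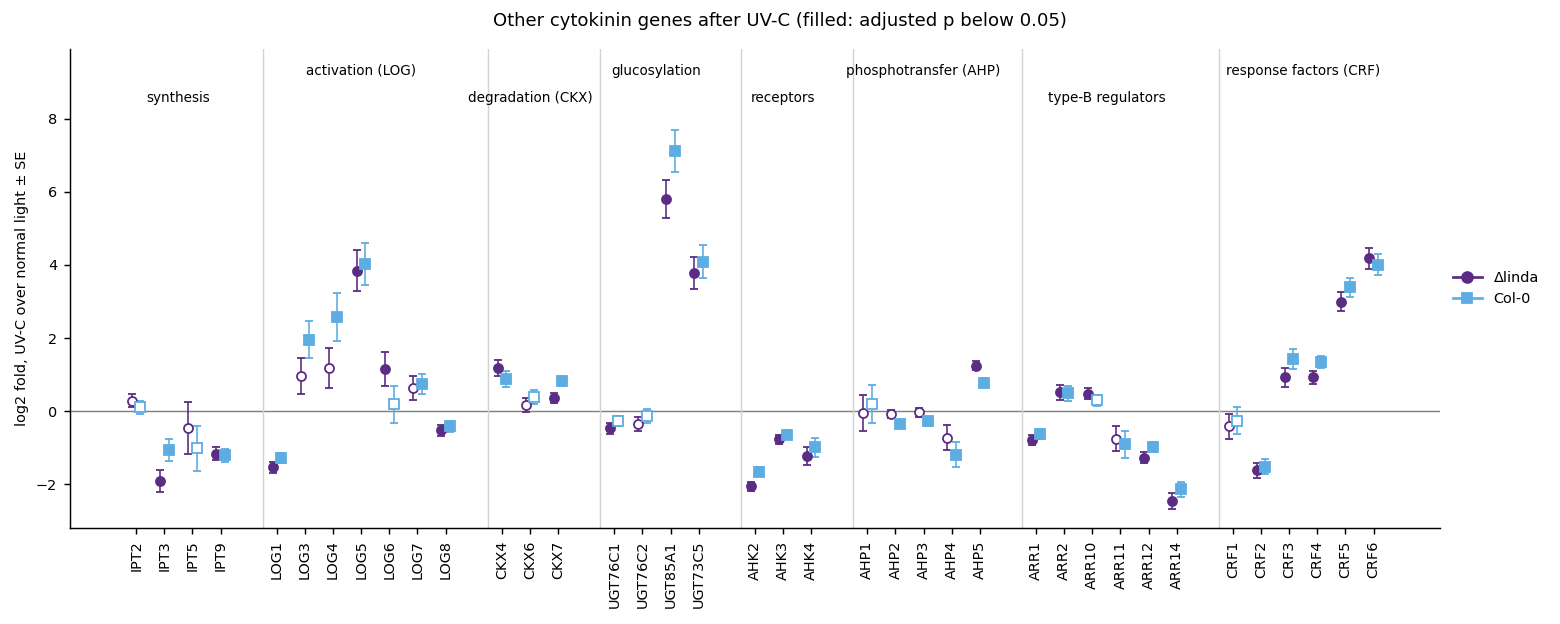
Log2 fold of UV-C over normal light with its standard error for the other tested cytokinin genes, by list, in each genotype, leaving out genes that stayed under 4 counts in every library of a normal light group; filled symbols passed an adjusted p of 0.05. The 3 receptor genes lie below 0, CRF3 to CRF6 lie above 0, and UGT85A1 is the highest point at 5.82 in Δlinda and 7.12 in Col-0.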

How the data were processed

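The submitters' processing notes name Trimmomatic 0.38.0, FastQC 0.72 and, for quantification, Salmon 0.14.1.2, with no settings. The transcript set and genome build are not given in the sources used here. Values in the deposited table are raw estimated counts of genes in 30 libraries, which were grouped by title. Mock Col-0 replicate 1 carries the other genotype in one tag, and the treatment protocol swaps the words for mock and drug; titles were followed.

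Estimates that are not whole lost their decimal mark in the deposited table, as read from the values. The mark was put back per gene by the joint likelihood of all libraries; 109785 of 723692 entries above 0 (15.17%) received decimals, and 2581 genes that stayed unclear by a log-likelihood margin of 3 were left out. The steps use the groups, so they can draw replicates together, and ARR6 is read 10 times lower after UV-C than without them; the sums of its deposited digits with those of AT5G62910 were checked after seeing the data. On data simulated from the restored group means of 22861 genes already judged clear, 5 kept genes held a wrong entry of 10 or more. The simulation takes the restored readings as true, so it cannot show that they are right for genes such as ARR6. By likelihood alone the ARR3 entry of mock Col-0 replicate 1 read 1.001 at a margin of 1.5. This is under the margin of 3, so ARR3 would have been left out. A rule applied to the family members only kept it. The entry was settled at 10.01 by its sum with ARR4, which is then 1111. With the entry at its likeliest reading, 8 of 8 ARR3 folds for treatments and controls kept their direction and call. Sums within 0.002 of a whole number were taken as a sign of shared reads where nearly all estimates of a member that were not whole had them. A few such sums do not show sharing. ARR4 had them with AT3G62190 in 4 of its 6 estimates that were not whole, and with AT1G10657 and AT1G36070 in 3 each. Whether ARR4 shares reads with these was not tested.

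Counts were rounded and fitted in edgeR 4.0.16 (R 4.3.3) over all 30 libraries with 1 coefficient per group, TMM scaling, filterByExpr (count 10, total 15) and the robust quasi-likelihood test. P-values were Benjamini-Hochberg adjusted over 21040 genes separately for the 14 comparisons, and called under 0.05. Standard errors were taken as the size of the log2 fold over the root of its F value, and a floor of 3 counts stands for 0; floors cover counting error only. Nothing states that replicates came from separate cultures, so p-values measure only the spread between samples. The 10 members and the cytokinin and marker lists were chosen with earlier results of these data known. All members are described, and per list and treatment comparison up to 3 genes past the threshold with the largest absolute log2 fold are named, with a few others of the lists added after their values were seen. Likeness takes the 3 genes with the highest r (prior count 2). A marker of the root list is not reported here and is in no sum. Names come from the TAIR10.1 table, which matched 37379 identifiers. Alternatives were another scaling, DESeq2 1.42.0, other filters, subsets of libraries, a replicate block and other readings of the decimals.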

Additional observations from a re-analysis of the deposited data

Results flagged for a closer look

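In groups of 4, a library was singled out where its gap to the nearest of the other 3 took up most of the group's range, by Dixon's criterion, which chance meets in about 1 of 20 groups. Of 57 member groups 6 met it. Of these, 4 came from Zeocin Δlinda replicate 1, which had 111 CPM of ARR4, 44.9 CPM of ARR6, 50 CPM of ARR7 and 5.04 CPM of ARR15. The other 3 libraries of that group had 60.5 to 60.8 CPM of ARR4, 18.6 to 21.3 CPM of ARR6, 17.2 to 21.0 CPM of ARR7 and 1.44 to 1.80 CPM of ARR15. ARR16 was high in normal light Δlinda replicate 1, the shallowest library, with 7.60 CPM against 4.44 to 4.98 CPM in the others. ARR17 had 0.356 CPM in mock Col-0 replicate 2, which is 6 counts, against 0 to 0.060 CPM in the others.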

How the results depend on the processing

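By DESeq2 the counts of members called were 8 in each genotype for UV-C and 0 for Zeocin, as in edgeR. Leaving out single libraries gave 7 to 8 calls for UV-C in each genotype, 0 for Zeocin and for every comparison of genotypes, 7 to 8 and 6 to 7 for the Zeocin minus UV-C response in Δlinda and Col-0, and 4 and 3 to 5 for mock against normal light. With decimal marks placed without the groups, 5 members could be read, and the counts became 4 for UV-C and 3 for the Zeocin minus UV-C response in each genotype; ARR3, ARR4, ARR6 and ARR8 then stayed unread, ARR6 with a likeliest reading 10 times higher in all UV-C libraries. Members were also summed with another locus, a step chosen after seeing the data. For UV-C, ARR3 with ARR4 had -0.864 in Δlinda and -1.108 in Col-0. The same sum had 1.011 and 1.194 for Zeocin minus UV-C, and -0.354 and -0.707 for mock against normal light. ARR4 makes up nearly all of it, so its folds are in effect those of ARR4 and cannot test ARR3. Summing ARR6 with AT5G62910, which shares its reads, gave 0.263 in Δlinda and 0.130 in Col-0 for UV-C. The cause was not tested.

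Values near 0 changed sign. ARR8 for Zeocin in Δlinda became 0.001 without the noncoding AT3G06365 (AT3G41768 was not among the kept genes), 0.031 with a replicate block and 0.001 summed. For mock against normal light in Col-0, ARR8 became 0.047 with DESeq2 size factors and in DESeq2, 0.003 without AT3G06365 and 0.012 with the block, and ARR7 0.016 with the block. Without single libraries, the Zeocin folds in Col-0 ranged from -0.392 to 0.455 for ARR3, -0.171 to 0.244 for ARR4, -0.169 to 0.306 for ARR5, -0.047 to 0.332 for ARR6, -0.331 to 0.033 for ARR15 and -0.252 to 0.160 for ARR16. In Δlinda they ranged from -0.129 to 0.224 for ARR4, -0.093 to 0.069 for ARR8, -0.072 to 0.190 for ARR9 and -0.216 to 0.128 for ARR16. The others that crossed 0 were ARR7 for UV-C in Col-0 (-0.301 to 0.051), ARR5 for Zeocin minus UV-C in Δlinda (-0.502 to 0.030), and for mock against normal light ARR6 in Δlinda (-0.206 to 0.133) and ARR8 in Col-0 (-0.034 to 0.034).

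The deviations of same-numbered replicates correlated above 0 in all pairs of 2 of 10 comparisons and above 0.1 in all pairs of 0, so the numbers are not taken as pairs. With the replicate block, ARR15 in Col-0 (-0.620, edgeR adjusted p = 0.34) and ARR9 in Δlinda (-0.258, edgeR adjusted p = 0.28) lost their calls for mock against normal light. ARR5 gained a call there in Col-0 with DESeq2 size factors (0.701, edgeR adjusted p = 0.034), in DESeq2 (0.701, DESeq2 adjusted p = 0.02), without AT3G06365 (0.658, edgeR adjusted p = 0.048) and with marks placed without the groups (0.714, edgeR adjusted p = 0.035). With no filter, ARR5 lost its UV-C call in Δlinda (edgeR adjusted p = 0.097) and ARR7 its Zeocin minus UV-C call (edgeR adjusted p = 0.069). The cause was not tested. Depth limits ARR3, ARR15, ARR16 and ARR17, which have under 100 counts per library.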
